A study of Mus musculus with 2 samples.

Results

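Spliced transcript models that, by their deposited class, joined annotated splice sites of a gene in an order not held by any annotated transcript, and that were found with the same introns in both libraries of mouse adrenal gland, numbered 2834. They were chosen as models of class NIC (a new combination of known sites) with more than 1 exon, assigned to an Ensembl mouse gene, whose chromosome, strand and every intron were identical in both libraries. Replicate 1 held 15376 such models and replicate 2 held 6744, which made 19286 different chains of introns, so that 16452 were of class NIC in 1 library only. Of these, 568 were read in the other library under another class and 15884 had no read there. The libraries listed 117665 and 62892 transcript models of all classes. The members were chosen by class, number of exons and presence of at least 1 read in both libraries, and ordered by mean reads. Their number and reads are therefore a description.

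The study sequenced adrenal gland RNA as long reads, in which 1 read can cover a transcript from end to end. Both libraries form 1 group of female mice, 36 days old, of the strain B6CASTF1/J, which is the F1 cross between C57BL/6J and CAST/EiJ, and the labels name no treatment. The labels give 1 µg of starting RNA for replicate 1 and no amount is known here for replicate 2. The labels disagree on whether both came from the same animal, so the spread between the libraries may be technical.

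Splicing removes introns between a donor site, at the end of an exon, and an acceptor site, at the start of the next one. From 1 set of sites a gene can make several messenger RNAs by skipping or including an exon, by using a nearby donor or acceptor, by keeping an intron, or by starting or ending on another exon. The coding effect depends on whether the change in length is a multiple of 3 nucleotides (nt), since other lengths shift the reading frame.

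The sequences below show the changed stretch of the members in which a few bases separated the model from the annotation. All are reference sequences on mm10 (GRCm38), from transcripts of GENCODE release M21, read 5′ to 3′ along the gene. In the first set, capitals mark an annotated intron that the member kept as exon, in the coding part of Oaz1 and Oaz2, the antizymes that restrain polyamine synthesis, and of Nadk2, the mitochondrial NAD kinase.
Oaz1 member, intron at chr10:80828292-80828295, plus strand: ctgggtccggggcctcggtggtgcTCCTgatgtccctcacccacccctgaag
Oaz2 member, intron at chr9:65686269-65686272, plus strand: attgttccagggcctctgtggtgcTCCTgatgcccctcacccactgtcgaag
Nadk2 member, intron at chr15:9100146-9100146, plus strand: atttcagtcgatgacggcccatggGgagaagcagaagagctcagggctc
Both annotated antizyme introns were 4 nt long and had the same letters, and the Nadk2 intron was 1 nt long. The nearest annotated forms, which lack these bases, had no read in either library. Whether splicing removes gaps this short was not tested, so the kept intron goes by the annotation only. In both antizyme members, translation from the annotated start codon met a TGA stop that begins at the fourth capital, after 68 codons in Oaz1 and 32 codons in Oaz2. As background, antizyme messenger RNAs are known for a programmed shift of the ribosome into another frame at such a stop codon.

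In the second set, capitals mark a short annotated coding exon that the member skipped, in Phb2, which encodes the inner mitochondrial membrane protein prohibitin 2, and in Sept7, which encodes a septin of the cytoskeleton.
Phb2-201, exon at chr6:124716425-124716430, plus strand: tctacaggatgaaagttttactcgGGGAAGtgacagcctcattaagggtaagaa
Sept7-201, exon at chr9:25265302-25265306, plus strand: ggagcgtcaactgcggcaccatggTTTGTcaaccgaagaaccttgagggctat
The exons were 6 nt and 5 nt long. In the reference bases at the model's positions, skipping the Phb2 exon took 2 codons out of the frame and left the annotated stop in place. The Sept7 member, read in the same way from the annotated start, met another stop 412 codons earlier than in Sept7-201. The bases of the reads were not examined, so whether the messages lacked these 6 nt and 5 nt was not tested.

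In the third set the member and the annotated transcript each held a short stretch at the same place in the message that came from another position in the gene, and capitals mark the bases each form alone holds. The genes encode the glycogen branching enzyme (Gbe1), a ubiquitin hydrolase (Uchl3) and the RNA-binding protein hnRNP K (Hnrnpk).
Gbe1 member, 4 nt taken at chr16:70433545-70433548, plus strand: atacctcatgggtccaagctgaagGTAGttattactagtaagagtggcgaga
Gbe1-203, 4 nt taken at chr16:70401850-70401853, plus strand: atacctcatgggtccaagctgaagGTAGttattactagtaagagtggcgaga
Uchl3 member, 14 nt taken at chr14:101654106-101654119, plus strand: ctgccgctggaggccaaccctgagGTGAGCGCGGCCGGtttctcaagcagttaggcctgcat
Uchl3-201, 12 nt taken at chr14:101654208-101654219, plus strand: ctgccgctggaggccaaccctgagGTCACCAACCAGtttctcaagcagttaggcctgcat
Hnrnpk member, 16 nt taken at chr13:58394060-58394075, minus strand: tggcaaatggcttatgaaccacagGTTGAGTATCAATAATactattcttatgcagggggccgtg
Hnrnpk-201, 16 nt taken at chr13:58393853-58393868, minus strand: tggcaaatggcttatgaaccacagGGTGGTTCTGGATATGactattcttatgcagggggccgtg
The spliced sequences of both Gbe1 forms were identical, an edit distance (the fewest base changes that turn one sequence into the other) of 0. The distance was 6 for Uchl3 and 8 for Hnrnpk, counted over the stretch that both forms cover.

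In the fourth set, capitals mark 3 nt at the start of an exon that 1 of the 2 forms leaves out, for the 6 genes with the most read members of this kind in the coding part.
Ctbp1 member, chr5:33248684-33248686, minus strand: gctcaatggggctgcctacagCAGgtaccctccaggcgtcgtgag
H2afy-202, chr13:56096232-56096234, minus strand: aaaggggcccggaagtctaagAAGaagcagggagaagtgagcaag
Aes-201, chr10:81565472-81565474, plus strand: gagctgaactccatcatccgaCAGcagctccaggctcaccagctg
Cars2-201, chr8:11530425-11530427, minus strand: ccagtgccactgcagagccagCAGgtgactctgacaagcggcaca
Ecm1-202, chr3:95738114-95738116, minus strand: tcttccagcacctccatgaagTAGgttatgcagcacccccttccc
Hgs-206, chr11:120479087-120479089, plus strand: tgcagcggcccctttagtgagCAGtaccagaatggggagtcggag
The Ctbp1 member kept the capitals, and the members of the other 5 genes left them out.

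The last set gives longer stretches in coding sequence, with the skipped exon (Cd47-201, Cyp21a1-201), the exon part left out (Fdxr-201), the stretch removed as an intron (Csnk1g2-201) or the added exon (Aplp2) in capitals.
Cd47-201, exon at chr16:49869018-49869080, plus strand: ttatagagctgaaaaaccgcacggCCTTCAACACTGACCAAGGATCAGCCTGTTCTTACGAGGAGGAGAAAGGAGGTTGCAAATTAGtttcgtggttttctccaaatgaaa
Cyp21a1-201, exon at chr17:34804044-34804133, minus strand: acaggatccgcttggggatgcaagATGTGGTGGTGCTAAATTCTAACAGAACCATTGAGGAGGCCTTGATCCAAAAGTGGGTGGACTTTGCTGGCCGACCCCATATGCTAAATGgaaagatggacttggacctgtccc
Fdxr-201, exon start at chr11:115271946-115271999, minus strand: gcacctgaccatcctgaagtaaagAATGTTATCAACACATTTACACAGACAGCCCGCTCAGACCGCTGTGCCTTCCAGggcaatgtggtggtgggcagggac
Csnk1g2-201, intron at chr10:80638080-80638160, plus strand: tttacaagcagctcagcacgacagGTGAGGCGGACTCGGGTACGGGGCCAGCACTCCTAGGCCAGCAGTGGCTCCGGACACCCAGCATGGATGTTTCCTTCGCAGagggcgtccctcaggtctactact
Aplp2 member, exon at chr9:31156190-31156225, minus strand: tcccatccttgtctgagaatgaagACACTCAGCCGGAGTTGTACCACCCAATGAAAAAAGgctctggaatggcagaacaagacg

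The members held 21246 of the 881739 full-length reads of replicate 1, which is 2.41% (95% Wilson interval 2.38% to 2.44%), and 8445 of the 294769 of replicate 2, which is 2.86% (2.81% to 2.93%). Full-length reads are those of spliced models that run complete through an annotated or a new chain of introns (classes Known, NIC and NNC, the last with a new splice site). The mean was 2.64% ± 0.322 (SD, n = 2). The rule asked for at least 1 read in each library and their depth differed, so the shares of the libraries are not compared. Of all reads in NIC models, the members held 54.0% in replicate 1 and 63.9% in replicate 2. The read numbers were uneven: the 20 most read members carried 29.5% and 25.4% of the member reads, and the members of Oaz1 carried 10.9% and 11.6%. The median member had 2 reads in replicate 1 and 1 read in replicate 2.

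**Figure D1:**
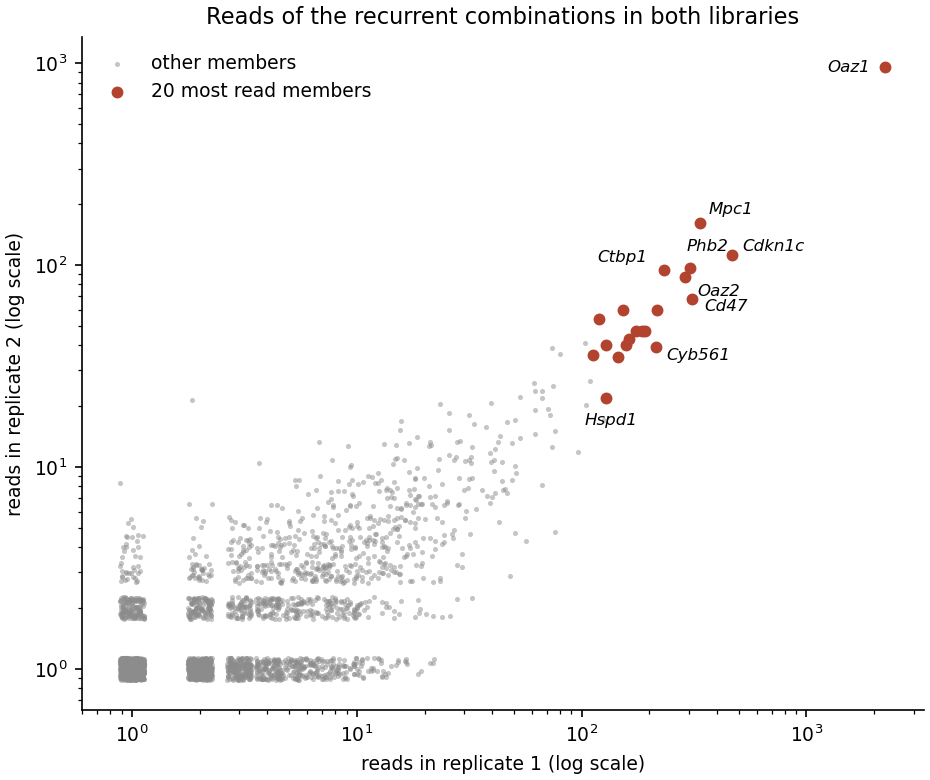
Reads of each member in replicate 1 (x axis) and replicate 2 (y axis), both on log scales, with the 20 most read members in red and the other members in grey; grey points were spread slightly around whole numbers so that ties can be seen. The Oaz1 member stands apart at 2246 and 951 reads, and 767 members lie at the lower left with 1 read in each library.

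Models with 1 read were members less often than models with 20 reads and over, in both libraries. Of the replicate 1 models, 8.63% of those with 1 read were also NIC in replicate 2, 31.7% of those with 2 to 4 reads, 65.5% with 5 to 9, 80.5% with 10 to 19 and 88.7% with 20 and over. Of the replicate 2 models, 31.6% of those with 1 read were also NIC in the deeper replicate 1, 73.4% with 2 to 4 reads, 91.7% with 5 to 9, 89.1% with 10 to 19 and 87.2% with 20 and over. Counted under any class, the chains with 20 reads and over were found again in 95.8% (161 of 168) for replicate 1 and in all 39 for replicate 2.

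At the edge of the rule, 767 members had 1 read in each library, 1011 had at least 2 in each, 263 at least 5 and 33 at least 20. Just outside it, most of the 4 most read chains of each library were read in both libraries but had different classes. A chain of Pitpna had 64 reads as NIC in replicate 2 and 252 reads as NNC in replicate 1, one of Smdt1 had 88 and 180 reads in those classes, and one of Hnrnpk had 69 and 175 reads. A chain of Cyp21a1 had 58 reads as NIC in replicate 1 and 23 reads in replicate 2 as an incomplete match of a known transcript (class ISM). The most read with no read of any class in the other library was of Tnni2, with 41 reads in replicate 1, and in replicate 2 of Deaf1 and Dnm2, with 5 reads each. A count of 0 allows up to 3 reads, which is 2.62 reads per 1000000 in replicate 1 and 7.24 in replicate 2.

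**Figure D2:**
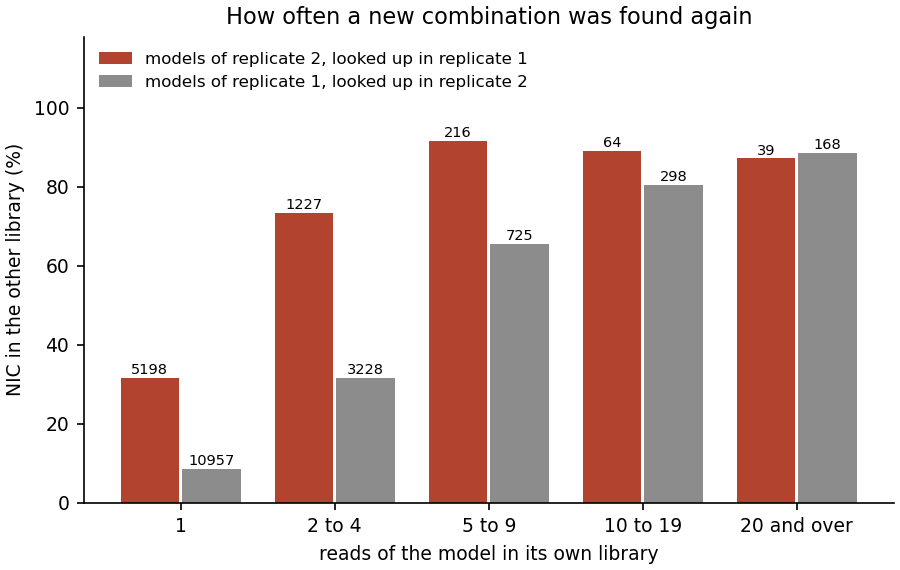
Share of NIC models that were also NIC in the other library (y axis, %) by their reads in their own library (x axis), for models of replicate 2 looked up in replicate 1 (red) and the reverse (grey); the number over each bar counts the models. The share is 31.6% and 8.63% at 1 read and 87.2% and 88.7% at 20 reads and over.

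The members lay in 1907 genes, of which 1361 had 1 member and 40 had at least 5. Cyp21a1, the steroid 21-hydroxylase, had 22, Cyp11a1, the side-chain cleavage enzyme that starts steroid synthesis, had 13, Hnrnpk had 12 and Cdkn1c, a cell cycle inhibitor, had 10. Protein-coding genes held 2788 of the members. A median member had 9 exons (quartiles 6 and 14) and 2076 bp, beside 9 exons and 2265 bp in the 16452 models of class NIC in 1 library only, called models of 1 library from here on.

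The class name was checked against the annotation. The data went against it for some members: 167 of 2834 (5.89%) used at least 1 splice site that is in no transcript of GENCODE M21, and 32 more used a site known only from another gene. In the other 2635 every site was annotated in the same gene. The 167 held 188 such sites, 54 of them within 10 nt of an annotated site of the same kind in the same gene, with a median distance of 60.5 nt over the 184 sites for which one could be measured. They include the Hnrnpk member shown above, members of Tmem205 and Txnrd2, and the Cdkn1c member of 191 and 47 reads. In models of 1 library the share was 17.4% (2869 of 16452). These members are described with the rest.

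Most members brought no new junction. In 2073 of them (73.1%, 95% Wilson interval 71.5% to 74.7%) every intron was already annotated and only the combination was new, as in Oaz1, Phb2 and Cd47. A further 729 (25.7%) held exactly 1 junction that is in no annotated transcript. In models of 1 library, 9155 of 16452 (55.6%) held no new junction. Among the members read at least 5 times in each library the share was 81.7% (215 of 263).

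Set against the annotated transcript of the gene that differed from it by the fewest introns, a skipped exon was the single change in the most members, 513 (18.1%). Introns of a further annotated transcript joined on at an end followed with 447 (15.8%), retained introns with 390 (13.8%), alternative acceptors with 333 (11.8%), alternative donors with 301 (10.6%) and alternative first exons with 299 (10.6%). This order is by number of members: among those with at least 5 reads in each library, joined-on introns (51), alternative acceptors (42) and alternative first exons (32) outnumbered skipped exons (29). By reads, retained introns held 20.3% and 21.2% of the member reads, against 13.1% and 13.9% for skipped exons. The Oaz1 member, with its 4-nt annotated intron, supplied 2246 of these 4303 retained-intron reads in replicate 1 and 951 of 1788 in replicate 2. This order by reads was reversed when the reference was whichever annotated form had the highest read number. Retained introns then held 8.61% and 8.95%, and skipped exons 15.9% and 17.1%. Against the nearest transcript, included exons were found in 139, several separate changes in 135, an intron inside an annotated exon in 130 and an alternative last exon in 64. Rare forms were complex changes (38), introns with both sites moved (35) and exchanged exons (5), and for 5 members no annotated spliced transcript overlapped. Retained introns made up 13.8% of members, against 21.8% of models of 1 library, and several changes made up 4.76% of members, against 14.2% of models of 1 library. These shares are given side by side without a test, because presence in both libraries chose the members.

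**Figure D3:**
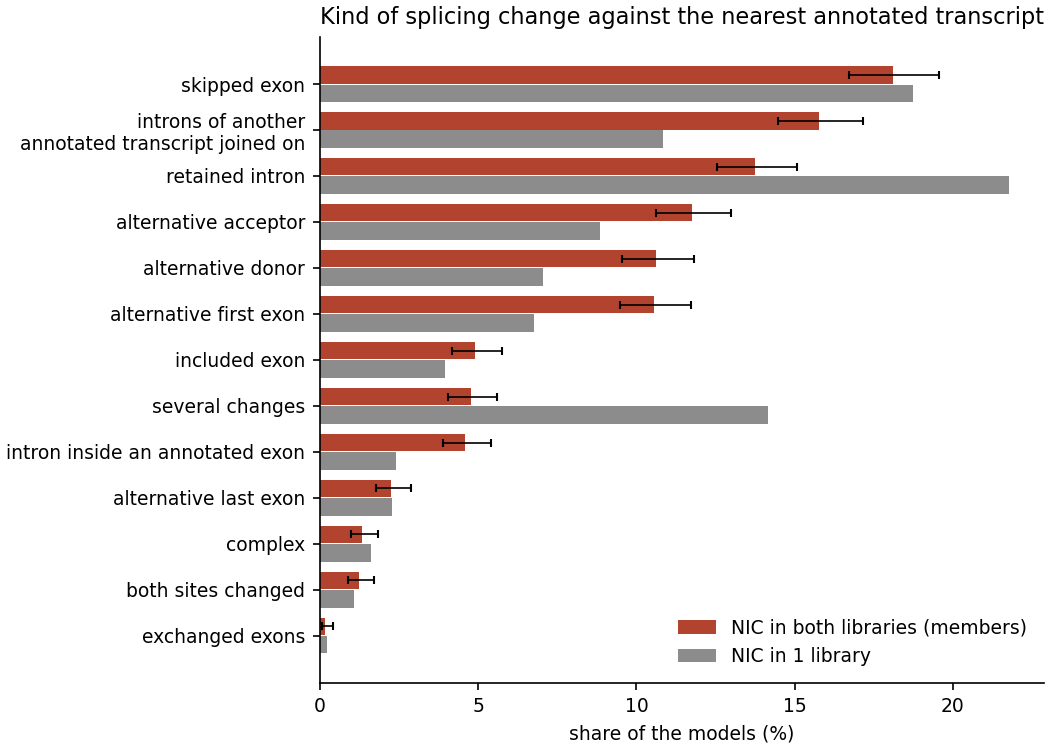
Share of models (x axis, %) by kind of splicing change (y axis), for members (red, with 95% Wilson intervals) and for models of class NIC in 1 library only (grey). Skipped exons are the longest red bar at 18.1%, and retained introns the longest grey bar at 21.8%; the 5 members with no overlapping annotated spliced transcript are not drawn.

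The choice of annotated transcript matters for these kinds. When only annotated transcripts that reach across all introns of the member were used, a choice made after the data were seen, 2192 of 2834 members (77.3%) had the same kind, skipped exons made up 645 and none was left as joined-on introns. For 142 members no single annotated transcript reached that far. The best read example is Mpc1, a subunit of the mitochondrial pyruvate carrier: the nearest annotated form is a transcript of the retained intron type, and against the coding Mpc1-202 the member skipped an 81-nt exon. Although 81 is a multiple of 3, the member did not reach the annotated stop. Read from an annotated start codon, it met another stop over 50 nt before the last junction, with 67 codons fewer than annotated.

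Skipped exons were short, with a median of 108 nt (quartiles 72 and 159.5, 543 events), and 494 of the 543 events left out 1 exon. In 272 events (50.1%, 95% Wilson interval 45.9% to 54.3%) the length was a multiple of 3. In models of 1 library the share was 47.7% (1785 of 3743), and among all annotated internal exons of the members' genes it was 38.2% (8497 of 22232). Included exons had a median of 90 nt, and 80 of 155 (51.6%) were a multiple of 3 long. Of the 543 skipped exon events, 22 were under 30 nt, those of Phb2 and Sept7 among them. Retained introns had a median length of 279 nt, and 6 of 500 were under 30 nt, the Oaz1, Oaz2 and Nadk2 introns among them.

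Reading each member from an annotated start codon, in the reference bases at the model's positions, gave a stop in 2364. The annotated stop was reached in 1327 of these (56.1%), in 716 with the same number of codons and in 611 with another number. In 775 (32.8%) another stop was met that lay over 50 nt before the last junction, the position at which nonsense-mediated decay is known to act on messenger RNAs. In models of 1 library, 45.8% (4866 of 10624) had such a stop. Among members with at least 5 reads in each library it was 20.8% (47 of 226). The models that could not be read to a stop were left out, and their share differed. Bases were not covered in 5.89% of members and 15.1% of models of 1 library. No annotated start codon was held by 8.54% and 16.1%. By position against the nearest transcript, 1445 changes lay within the coding part, 642 lay 5′ of it and 186 lay 3′ of it.

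For genes covered by 20 or more full-length reads per library, 1585 members could be given as a share of their gene. The median share was 1.61% in replicate 1 and 3.03% in replicate 2. The rule asked for at least 1 read in each library, and replicate 2 was shallower, so these medians are not compared. Over the 410 members tested for usage below, the median difference of share, replicate 2 minus replicate 1, was -0.0661 percentage points. In these 918 genes 132 members held over 10% in both libraries, 48 held over 25% and 18 held over 50%, and 38 were the most read chain of their gene in both.

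By the mean of both libraries, the highest shares belonged to Phb2, Oaz1 and Mpc1. The Phb2 member had 304 reads in replicate 1 and 97 in replicate 2, which is 97.4% and 99.0% of the gene. The Oaz1 member had 2246 and 951 reads, 96.4% and 96.8% of the gene. The Mpc1 member had 336 and 162 reads, 94.6% and 95.9% of the gene, and its 1 new junction was in 339 of the 351 reads that spanned it in replicate 1 and 163 of 166 in replicate 2. The 95% Wilson intervals of both libraries overlapped for all 3.

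In 8 members that held over 50% of the gene in both libraries, the annotated transcript they were closest to had no read in either library. They were of Oaz1, Phb2, Oaz2, Txnrd2, Sept7, Uchl3, Gbe1 and Nadk2. Oaz2 had 288 and 87 reads (92.6% and 96.7%), Sept7 112 and 36 (91.8% and 97.3%) and Gbe1 77 and 20 (96.2% and 90.9%). Uchl3 had 75 and 35 reads (81.5% and 87.5%), and Nadk2 76 and 13 (58.5% and 56.5%). Read from an annotated start codon, the Uchl3 and Nadk2 members met another stop over 50 nt before the last junction. In the reference bases at the models' positions they ran 207 codons shorter in Uchl3 and 119 in Nadk2. The bases of the reads were not examined, so whether the messages held these stops was not tested. The Txnrd2 member, of the mitochondrial thioredoxin reductase, had 157 and 40 reads (73.7% and 69.0%) and a net gain of 5 nt over Txnrd2-203. The edit distance to that annotated form was between 0 and 6 in the 7 genes where the sequence was known. For Gbe1 it was 0, so over the stretch both forms cover no base of a read separates the member from Gbe1-203. The Gbe1 share therefore goes by the side of the intron on which 4 nt were placed. Nadk2 was named after its values were seen.

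**Figure D4:**
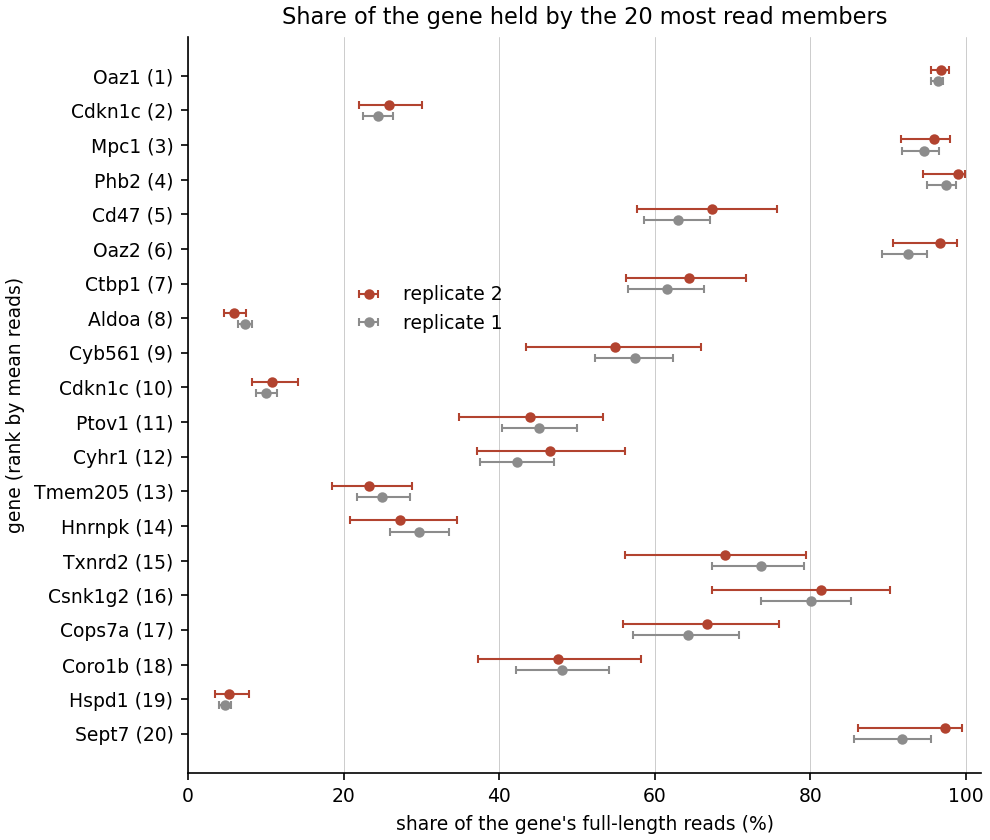
Share of the gene's full-length reads (x axis, %) held by each of the 20 most read members (y axis, by rank), in replicate 2 (red) and replicate 1 (grey), with 95% Wilson intervals as bars. The intervals of both libraries overlap in every gene shown, and 6 genes (Oaz1, Mpc1, Phb2, Oaz2, Sept7 and Csnk1g2) lie above 80% in both libraries.

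Skipping of larger coding exons gave other much read members. Cd47, the surface protein that holds back phagocytes, lost a 63-nt exon in 310 and 68 reads, 63.01% and 67.3% of the gene, against 96 and 12 reads of Cd47-201, which holds the exon. The frame ran 21 codons shorter to the annotated stop. Agap3, named after its values were seen, left out 309 nt in 41 and 16 reads (82.0% and 69.6%), with 103 codons fewer to the annotated stop. Both members led their gene in both libraries.

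Among acceptors, a shift of 3 nt was the most frequent. It made up 125 of the 376 acceptor events of members (33.2%, 95% Wilson interval 28.7% to 38.2%) and 1 of their 334 donor events (0.299%). The interval counts each event as separate, although several members can share a place. In models of 1 library it was 533 of 2362 acceptor events (22.6%). These are tandem acceptors, in which a second AG follows the first by 3 nt: of the 108 different places in members, the 3 bases were known for 104, and in all 104 they ended in AG (motif NAG, searched on the gene's strand only), with CAG in 77. At 20816 annotated internal exon starts of the same genes the first 3 bases ended in AG in 5.58%. Since an acceptor site itself ends in AG, the match is what the choice of these events brings with it.

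For 108 members the 3-nt acceptor was the only change, in 96 genes, and 74 of them used the site that makes the exon shorter. The frame was 1 codon shorter to the annotated stop in 62 and 1 codon longer in 26. Ctbp1, a transcriptional corepressor, kept the 3 nt in 232 and 94 reads, 61.5% and 64.4% of the gene. H2afy, which encodes the histone variant macroH2A1, left them out in 121 and 27 reads, 46.9% and 45.0% of the gene, and a second H2afy member did so on another chain in 36 and 11 reads. Hgs, a sorting protein of endosomes, left them out in 24 and 19 reads (61.5% and 67.9%), and Cars2, the mitochondrial cysteinyl-tRNA synthetase, in 48 of 78 and 14 of 18 reads (61.5% and 77.8%). Aes, a corepressor of the Groucho family, had 68 and 22 reads on the shorter form (7.24% and 5.598%), against 841 and 355 on Aes-201. Ecm1, an extracellular matrix protein, had 31 and 18 reads (18.1% and 18.2%), and a second Ecm1 member left out 3 nt on another chain in 11 and 6 reads. The member with the shorter form was thus a small share in Aes and the leading chain in Hgs and Cars2, with few reads of Cars2 in replicate 2. Each share is of 1 chain, and the use of a site over all chains of its gene was not counted. Aes, Cars2, Ecm1 and Hgs were named after their values were seen.

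**Figure D5:**
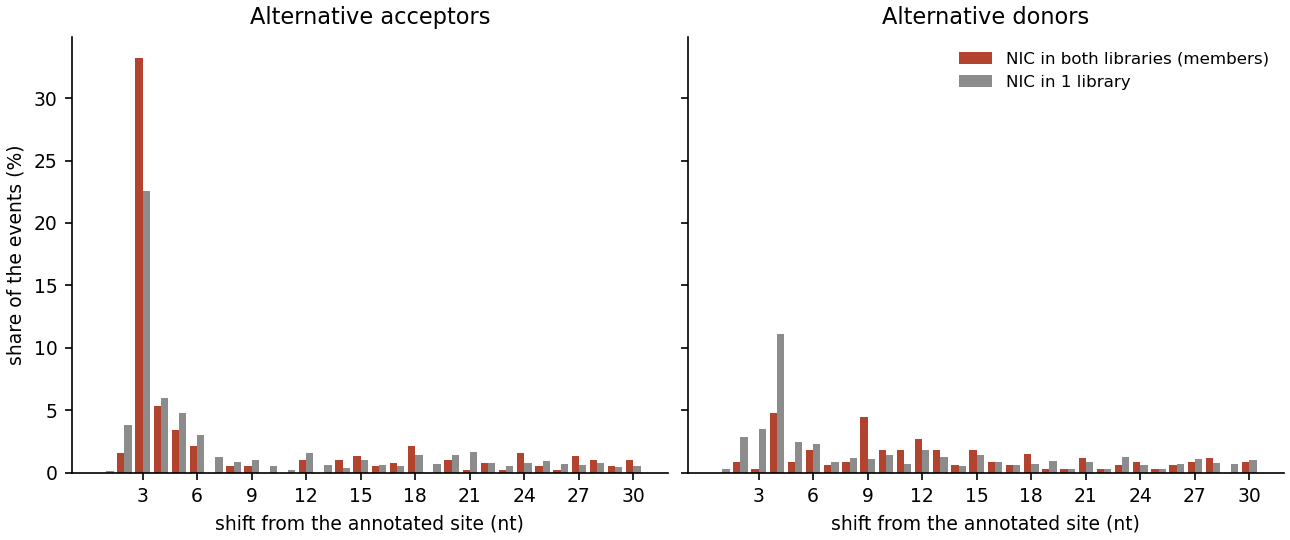
Distance of alternative acceptors (left) and donors (right) from the annotated site (x axis, nt, up to 30), as a share of all such events (y axis, %), for members (red) and for models of class NIC in 1 library only (grey). At 3 nt the acceptors of members reach 33.2% and those of models of 1 library 22.6%, and the donors of members reach 0.299%.

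Larger shifts were also read. Cops7a, a subunit of the COP9 signalosome, used an acceptor 865 nt upstream in 119 and 54 reads (64.3% and 66.7% of the gene). Coro1b, the actin-binding coronin 1B, used a donor that makes its exon 7 nt shorter ahead of the coding part, in 128 and 40 reads (48.1% and 47.6%). In the reference bases the Coro1b member reached the annotated stop with the annotated number of codons. Hspd1, the mitochondrial chaperonin, ended a noncoding exon 210 nt earlier in 128 and 22 reads (4.69% and 5.23%), against 2539 and 388 reads of Hspd1-201. Atp6v1h, a subunit of the proton pump, ended one 347 nt later in 73 and 5 reads (10.1% and 3.62%).

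Cdkn1c had members at rank 2 and rank 10, with 466 and 112 reads and with 191 and 47 reads. Against Cdkn1c-201, which had 642 and 122 reads, the first used a donor 36 nt further on and ran 12 codons longer to the annotated stop. The second added a 3-nt acceptor shift. They held 24.4% and 25.8%, and 10.01% and 10.8%, of the reads of the gene.

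Of the 299 members with an alternative first exon, 159 reached the annotated stop with the annotated number of codons and 80 held no annotated start codon. The 3 most read, of Aldoa, Cyb561 and Tmem205, left the reading frame as annotated in the reference bases. Cyb561, the cytochrome of chromaffin granules, had a member with 213 and 39 reads (57.4% and 54.9% of the gene), against 73 and 10 reads of Cyb561-201. Aldoa, the muscle-type aldolase of glycolysis, had 216 and 60 reads on a member (7.27% and 5.88%), against 2588 and 902 of Aldoa-201. The Tmem205 member had 152 and 60 reads (24.96% and 23.3%). Alternative last exons were most read in Cyhr1 (174 and 47 reads, 42.2% and 46.5%) and in Xpnpep1, an aminopeptidase (61 and 28 reads, 49.6% and 50.9%). The Cyhr1 change is an alternative first exon against the nearest transcript that reaches across the whole member.

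Included exons were fewer. Ndufs1, a subunit of respiratory complex I, took up a 104-nt exon ahead of the coding part in 63 and 23 reads (15.04% and 23.96%). Kifc3, a kinesin motor, took up 2 exons of 321 nt in all and ran 107 codons longer, in 42 and 10 reads (24.4% and 32.3%). Aplp2, a relative of the amyloid precursor protein, took up the 36-nt exon shown above in 20 and 7 reads (3.91% and 4.46%). An intron taken out of an annotated exon was most read in Ptov1 (184 nt after the coding part, 186 and 47 reads, 45.1% and 43.9%). Csnk1g2, a casein kinase, lost 81 nt in 145 and 35 reads (80.1% and 81.4%), and the frame was 27 codons shorter.

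Among rarer kinds, Ing4, a chromatin reader, moved both sites of 1 intron, with a net loss of 6 nt, in 39 and 5 reads (30.7% and 19.2%). Pde8b, a cyclic AMP phosphodiesterase, did so with a net gain of 595 nt in 31 and 9 reads (31.3% and 42.9%). Exchanged exons were most read in Tmem87b (15 and 3 reads), Dlg1 (3 and 1 reads) and Dnm2 (1 and 2 reads). Of the 5 members with no overlapping annotated spliced transcript, the most read was of Srd5a2, a steroid 5-alpha-reductase, with 2 and 1 reads, and the other 4 had 1 read in each library. In all, 9 members were counted for different genes in the libraries and have no share.

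Steroid-producing genes often had members, and in the most read of these genes each member was a small share. On the steroidogenesis list, 10 of 15 genes covered by 20 or more full-length reads per library had a member (66.7%), beside 920 of all 2772 such genes (33.2%). Cyp21a1 alone had 13497 and 4245 full-length reads, and the part of read number in this difference was not tested. The list held 60 members, 21 of them retained introns and 15 skipped exons. In Cyp11a1 the 13 members together held 269 of 10477 full-length reads in replicate 1 and 68 of 3152 in replicate 2, which is 2.57% and 2.16%. In Cyp21a1 the 22 members held 228 of 13497 and 69 of 4245, which is 1.69% and 1.63%.

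The Cyp11a1 member that kept a 478-nt intron had 116 and 16 reads (1.11% and 0.508%), and the member that skipped a 200-nt exon had 49 and 8 reads. Cyp21a1 skipped the 90-nt exon shown above in 68 and 17 reads (0.504% and 0.400%), with 30 codons fewer to the annotated stop. The new junction was in 74 of 13487 spanning reads of replicate 1 and 18 of 4243 of replicate 2. Cyp21a1 has a near-identical pseudogene next to it, and reads that could belong to either are uncertain. Fdxr, the reductase that passes electrons to the mitochondrial P450 enzymes, left out 54 nt in 97 and 12 reads (6.32% and 4.18%), with 18 codons fewer. Star, the carrier that brings cholesterol into mitochondria, had 5 members with 18 and 15 reads, all of retained introns, 0.185% and 0.579% of the gene.

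In the medulla list 4 of 10 genes had a member (40.0%): Th, tyrosine hydroxylase of the catecholamine pathway, had 4 members, all with retained introns, with 36 and 8 reads (2.00% and 1.84% of the gene), and Chga, a granin of chromaffin granules, had 2 skipped-exon members with 24 and 6 reads. Cyb561, on the same list, had 3 members that held 64.2% and 62.0% of the gene. For splicing factors it was 11 of 19 (57.9%), with 65 members. Hnrnpk led with 12 members and 316 and 78 reads, 57.5% and 49.4% of the gene, and since Hnrnpk has pseudogene copies its reads are uncertain. The new junction of its most read member was in 528 of 549 spanning reads of replicate 1 and 153 of 157 of replicate 2. The Hnrnpk members at ranks 37 and 41 held the same junction, so the 12 members are not 12 separate changes. Read from an annotated start codon in the reference bases, all 12 members met another stop over 50 nt before the last junction. The bases of the reads were not examined, so whether the messages held these stops was not tested. Srsf5, which encodes an SR protein, had 7 members with 72 and 10 reads (34.0% and 37.0%). Star, Chga and Srsf5 were named after their values were seen. The share of genes with a member was 31.4% for oxidative phosphorylation (16 of 51), 25.8% for the cytosolic ribosome (8 of 31), 27.3% for cholesterol and lipid genes (3 of 11), 34.8% for antioxidant and stress genes (8 of 23), 35.7% for the cytoskeleton (5 of 14) and 33.3% for noncoding RNA hosts (1 of 3). In the cholesterol list Dhcr7, the last enzyme of cholesterol synthesis, had a member that holds 169 nt more than Dhcr7-201, as an included exon, in 12 and 8 reads, 37.5% and 34.8% of its full-length reads. That mean of 36.1% is 3.92% when incomplete spliced models are counted in the gene.

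Few of the 410 members with enough reads for a test were called as differing in their share of the gene between the libraries. The other members were not tested, and a member that was not called is not shown to be equal. Each chain was tested with a two-sided Fisher's exact test against the other full-length reads of its gene, replicate 2 over replicate 1, over 4485 chains of all full-length classes with Benjamini-Hochberg adjustment. It called 72 chains, 1.61% of those tested. Among the 4423 chains read in both libraries, as all members are, 58 were called (1.31%), 0.61% higher and 0.701% lower in replicate 2. Of 410 members tested, 2 were called (0.488%), both higher in replicate 2, beside 0.78% of all chains called higher and 0.825% called lower there. None of the members on the 9 gene lists was called, and 20 members had an unadjusted p under 0.05. The median absolute difference of share was 2.14 percentage points over the members and 2.88 over all chains tested. With 1 library on each side the test covers counting error only and says nothing of mice in general.

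The called members were of Alas1, the first enzyme of haem synthesis, and Plin2, a coat protein of lipid droplets. The Alas1 member, which kept a 1366-nt intron, had 22 of 533 full-length reads in replicate 2 (4.13%, 95% Wilson interval 2.74% to 6.17%), against 2 of 1056 in replicate 1 (0.189%, 0.0520% to 0.688%; Fisher's exact test, adjusted p = 8.00e-07). The Plin2 member, whose introns of a second annotated transcript were joined on at an end, had 13 of 201 in replicate 2 (6.47%, 3.82% to 10.7%), against 9 of 718 in replicate 1 (1.25%, 0.661% to 2.36%; Fisher's exact test, adjusted p = 0.0102). Both intervals stood apart between the libraries. Depth also differed, with 414588 reads of annotated genes in replicate 2 and 1144572 in replicate 1.

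Marker genes of the labelled tissue were read in both libraries. The 5 cortex markers summed to 81614 reads per 1000000 in replicate 2 and 63143 in replicate 1, and the 5 medulla markers to 6739 and 9944. Markers of other cells differed too: 3 adipocyte markers summed to 5217 and 2828 per 1000000 and 2 skeletal muscle markers to 4.82 and 562, while 2 erythroid markers summed to 3071 and 3153. All of the listed markers had reads in both libraries. Their part in the Alas1 and Plin2 differences was not tested, and in whole tissue a change in the number of cells of a type and a change in RNA per cell cannot be told apart.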

How the data were processed

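Total RNA of mouse adrenal gland was read as long reads in 2 libraries of 1 group. The deposited tables hold the authors' counts of whole reads per transcript model, and list only models with at least 1 read. Exon numbers, model lengths and exon positions, of no unit of expression, were taken from the deposited tables as given. Models were built with TALON on mm10 with GENCODE M21, per the file headers and notes, and the labels' protocols name the ENCODE long-read pipeline. Aligner and tool versions were not given in the sources used here.

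From these counts, chains of introns were matched between the libraries and set against annotated transcripts (Python 3.11.15, pandas 2.3.3, SciPy 1.17.1, edlib 1.3.9.post1). The libraries held 1223776 and 453761 reads, and Wilson intervals and floors cover counting error only. Intervals over members or events count each as separate, although members of a gene can share a change. Usage was tested for chains with at least 10 reads in total in genes covered by 20 or more full-length reads per library, at an adjusted p of 0.05. The classification and the usage test were tested on simulated data. Members were named as the 20 most read, the 3 most read of each kind, the 3 highest shares, the 6 widest called differences and the 3 most read per gene list with at least 10 reads. Members and lists were chosen with earlier results of these data known. Sequences come from GRCm38 transcripts of GENCODE M21.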

Additional observations from a re-analysis of the deposited data

How the results depend on the processing

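The number of members was 1011 with at least 2 reads in each library and 263 with at least 5, against 2834 with at least 1. The share of full-length reads held by members, 2.64%, was 1.95% of all reads of annotated genes, and 2.41% to 2.86% with 1 library left out. The share of members with a skipped exon, 19.02%, was 24.8% against the most read annotated transcript, 11.0% with at least 5 reads in each library and 24.2% against the nearest transcript across all introns. At 5 reads the share with no new junction was 81.7%, skipped exons with a length that is a multiple of 3 made up 60% (18 of 30), and acceptors shifted by 3 nt made up 48.8% (21 of 43), against 73.1%, 50.1% and 33.2%. The cause was not tested. The comparison across all introns and the alternatives for the 3-nt acceptors were chosen after seeing the data. The usage test called 2 members at a minimum of 20 or of 2 reads, and 3 with all spliced reads of the gene as the base, the third being of Cyp11a1. Over all chains it called 1.61% in the main form, 1.77% and 0.663% at those minimums, and 3.98% (180 of 4528) with all spliced reads as the base. Of 56 named shares, 24 moved by more than 1 SD with that base. No paired analysis was possible because both libraries belong to 1 group.

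The depth of replicate 2 limits what can be found again, and a model listed in 1 library is not shown to be absent from the other.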
